A study of Saccharomyces cerevisiae with 54 samples.

Results

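The 3 genes described here encode the meiosis-specific kinase of spore wall formation and 2 proteins that act on it. SMK1 (YPR054W) is the kinase, SSP2 (YOR242C) its activator and CAK1 (YFL029C) the kinase upstream, and they were taken by their systematic names from 6679 genes in every table. Budding yeast (Saccharomyces cerevisiae) of the SK1 background, which sporulates readily, were collected while dividing exponentially, then 0, 1.5, 3, 4.5, 6, 8 and 10 h after transfer to sporulation medium, and finally as spores, and a MATa/a strain in the same medium was collected at 4.5 h. MATa/a cells are diploid but carry only the a mating type, so they lack the signal that starts meiosis. For each of these 10 states of the course, ribosome footprints, mRNA and total RNA were sequenced in 1 library each, so the course has no replicates. Parallel libraries give replicates. Footprint libraries used here are 2 each of 1.5, 3 and 6 h and 1 each of growth and 0 h, and mRNA libraries are 2 each of 1.5 and 6 h and 1 of 3 h. The labels list 2 mRNA samples of 3 h, but their columns are identical and were counted as 1 library, and a parallel mRNA sample of 0 h, which was not analysed here. The labels do not say whether replicates are cultures of their own, and the spread that p-values rest on may therefore be technical. A further 9 mRNA libraries come from strain brun95, whose transcription factor Ndt80 is inducible, 4 of them uninduced (4, 5.5, 6 and 7.75 h) and 5 induced (5.75, 6, 6.5, 7 and 7.75 h). The sources used here do not say how Ndt80 was induced or which other alleles brun95 carries.

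Smk1 is a relative of the mitogen-activated protein (MAP) kinases that is made only in sporulating cells and is needed for the layers of the spore wall to be laid down in order. It is not activated by a MAP kinase kinase. Cak1, the kinase that also phosphorylates the cyclin-dependent kinase Cdc28 in growing cells, phosphorylates one residue of its activation loop, and Ssp2, a protein made only in sporulation, then promotes phosphorylation of the neighbouring residue by Smk1 itself. Ndt80 is the transcription factor that takes cells out of meiotic prophase and switches on the middle genes, to which SMK1 and SSP2 belong. Ribosome footprints are the pieces of mRNA that ribosomes protect from nuclease, so their number reports how much a message is being translated.

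Values are reads per kilobase and per library size (RPKM) as deposited by the authors. The 52 libraries used held 1.03 to 24.7 M reads (M, 1e6 reads), as recovered from the values. All 3 genes are of like length in the reference (1167, 1116 and 1107 bases), no gene in that reference overlaps any of them, and no coordinates are printed because the sources used here do not name the build of the files. In the course mRNA library of 0 h, 1 read in the authors' denominator stands for 8.33 recovered reads, against 2.96 to 3.58 in the other 9, so its RPKM values are on a higher scale. The MATa/a libraries differ by assay. IME1, the regulator of meiotic entry, was at 469 RPKM in its footprint library but at 18.5 in its mRNA library, where growing cells had 56.6.

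SMK1, the kinase, was near the limit of counting until 1.5 h. Its footprints in the course were 2.12 RPKM in growth, 8.11 at 0 h and 3.10 at 1.5 h, from 8, 7 and 12 reads. They were 31.1 RPKM at 3 h, 1958 at 4.5 h, 2425 at 6 h, 2281 at 8 h, 468 at 10 h and 19.3 in spores. The footprints therefore stood on a plateau from 4.5 to 8 h, with low values on both sides. The MATa/a library had 1.85 RPKM from 7 reads, close to the level in growth. In the parallel set, SMK1 had 0.567 RPKM in growth from 2 reads and 0 reads at 0 h, where 3 reads would have given 7.67 RPKM.

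The mRNA of SMK1 followed the same times. It was at 3.20 RPKM in growth, 5.19 at 0 h, 5.10 at 1.5 h, 31.3 at 3 h, 2205 at 4.5 h, 2779 at 6 h, 2584 at 8 h, 1323 at 10 h and 41.9 in spores, and at 5.29 in MATa/a cells. The step from 1.5 to 3 h, 6.13-fold in mRNA and 10.0-fold in footprints, was small beside the next. The step from 3 to 4.5 h was 70.5-fold in mRNA and 62.9-fold in footprints. Of all genes averaging 5 RPKM or more over the course, 2.18% were at least 8-fold higher in mRNA and 2.43% in footprints over this later step, each fold taken on RPKM + 1, against 0.216% and 0.178% over the earlier one. From 8 to 10 h SMK1 footprints were 0.205 times and SMK1 mRNA 0.512 times the earlier level, a smaller loss in mRNA than in footprints. SSP2 (0.204 and 0.417 times) and CAK1 (0.416 and 0.772 times) had the same order. The log2 change of the median gene was 0.14 in footprints and 0.38 in mRNA. In these bulk samples, more cells at a stage and more RNA per cell cannot be told apart.

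SSP2, the activator, had more mRNA than SMK1 in every course state but, at 3 and 4.5 h, fewer footprints. Its mRNA was at 9.45 RPKM in growth, 37.2 at 0 h, 41.6 at 1.5 h, 74.3 at 3 h, 4376 at 4.5 h, 15139 at 6 h, 12443 at 8 h, 5193 at 10 h and 263 in spores. Its footprints were 7.21 RPKM in growth, 13.4 at 0 h, 11.9 at 1.5 h, 15.7 at 3 h, 204 at 4.5 h, 4877 at 6 h, 4756 at 8 h, 969 at 10 h and 73.3 in spores. MATa/a cells had 15.1 RPKM of mRNA and 7.46 of footprints. The largest step of the SSP2 mRNA, 58.9-fold, fell between 3 and 4.5 h, whereas the largest step of its footprints, 23.9-fold, fell between 4.5 and 6 h. Over that later step 0.533% of genes were at least 8-fold higher in footprints and 0.0665% in mRNA, and the SSP2 mRNA was 3.46-fold higher.

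**Figure D1:**
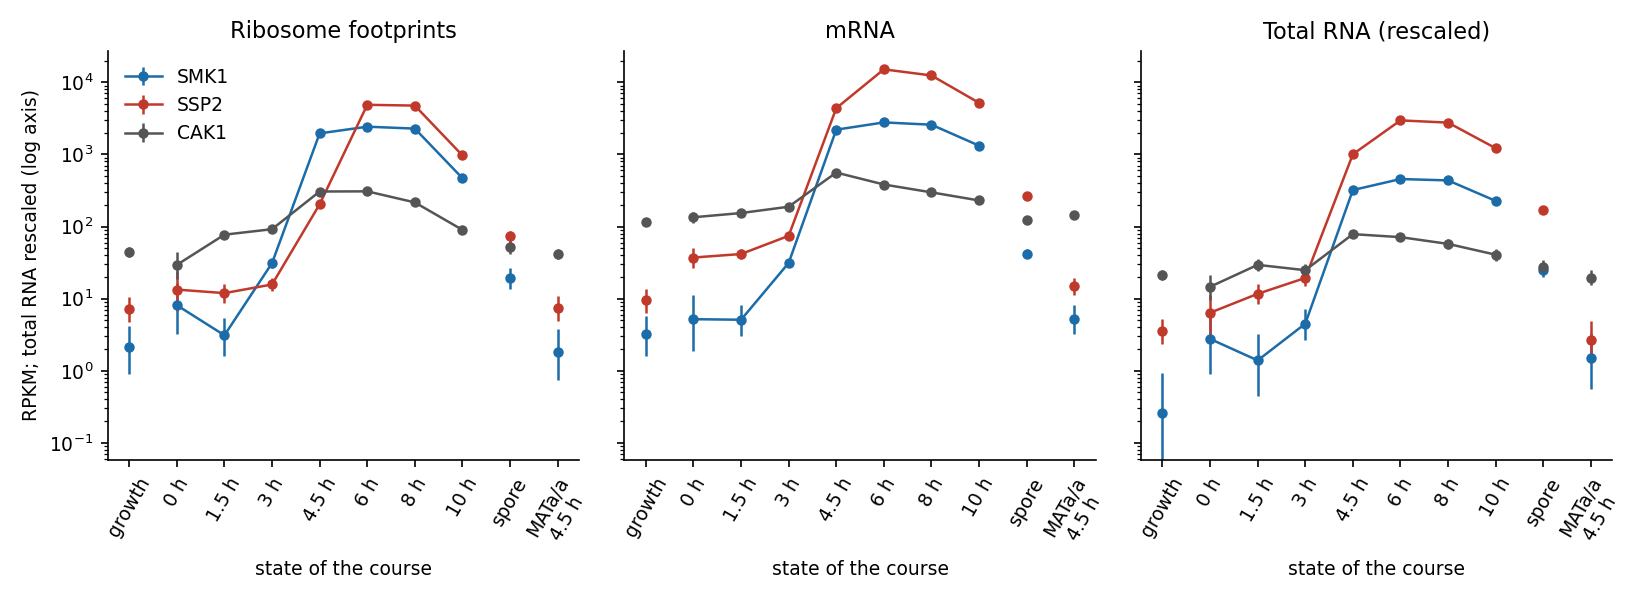
Levels of SMK1, SSP2 and CAK1 in each state of the course, on a log axis, in RPKM for footprints and mRNA and rescaled to reads per length and library total for total RNA. Points are single libraries, bars are exact 95% Poisson intervals that cover counting error only, and lines join 0 to 10 h. At 4.5 h the SSP2 point lies above SMK1 in both RNA panels (4376 against 2205 RPKM in mRNA) and below it in footprints (204 against 1958 RPKM).

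At 4.5 h the activator and the kinase thus stood in opposite order in the 2 assays. The ratio of SSP2 to SMK1 was 1.99 in mRNA and 3.14 in total RNA, but 0.104 in footprints. The counts behind it are large, with 925 footprint reads on SSP2 (204 RPKM, exact 95% Poisson interval 191 to 217) and 9323 on SMK1 (1958 RPKM, 1919 to 1998). These intervals cover counting error only, since reads without molecular identifiers are not independent molecules. At 6 h the ratio was 5.45 in mRNA and 2.01 in footprints, and at 8 h 4.82 and 2.09.

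The time at which each gene reached 50% of its highest value over 0 to 10 h, by linear interpolation between the sampled hours, puts a size on the delay. SMK1 reached it at 3.92 h in footprints and 3.94 h in mRNA, so its 2 readouts differed by -0.02 h, within the bounds that counting error gives (3.88 to 3.96 h for footprints, 3.91 to 3.96 h for mRNA). SSP2 reached it at 4.95 h in mRNA and 5.22 h in footprints, 0.272 h apart. At 20% of the maximum, the SSP2 footprints came 0.718 h after its mRNA (4.75 against 4.03 h), and those of SMK1 -0.0087 h (3.35 against 3.36 h). The activator followed the kinase by 0.668 h in mRNA and 1.39 h in footprints at 20% of the maximum, and by 1.01 and 1.30 h at 50%. Sampling was every 1.5 h here, so all of these times rest on the shape assumed between 3, 4.5 and 6 h.

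A delay of footprints behind mRNA was common among genes of this kind. Of 190 genes whose mRNA was at least 8-fold higher at its highest later point than at 1.5 h, 174 gave a delay at 50% of the maximum, with a median of 0.265 h and the middle 90% between -0.233 and 0.940 h. The SSP2 value lies at their median, with 86 genes above it, and SMK1 lies low, with 145 above it. At 20% of the maximum, where 159 genes gave a value with a median of 0.203 h, SSP2 stood higher in the order, with 21 genes above it.

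Translation efficiency, the log2 of footprints over mRNA (each RPKM + 1) minus its median over 5621 genes in the same state, shows where the SSP2 footprints were missing. For SSP2 it was 0.64, -1.23 and -1.44 in the first 3 samples (0, 1.5 and 3 h), -3.88 at 4.5 h, and -1.24, -1.02 and -1.78 in the last 3 (6, 8 and 10 h). SSP2 was therefore below the median gene at every time from 1.5 h on, and lowest at 4.5 h, when 0.854% of genes had a lower value. In plain ratios, SSP2 had 0.0465 footprint RPKM per mRNA RPKM at 4.5 h and 0.322 at 6 h. On the log2 scale SMK1 had values from 0.19 to 0.73 between 3 and 8 h, with 0.37 at 4.5 h, so it was above the median gene while its footprints stood on the plateau. It was at -0.08 at 1.5 h and was at -0.85 at 10 h. Its first value, 2.61 at 0 h, rests on 7 footprint and 6 mRNA reads. The higher scale of that mRNA library is shared by its genes and is largely removed with the median.

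**Figure D2:**
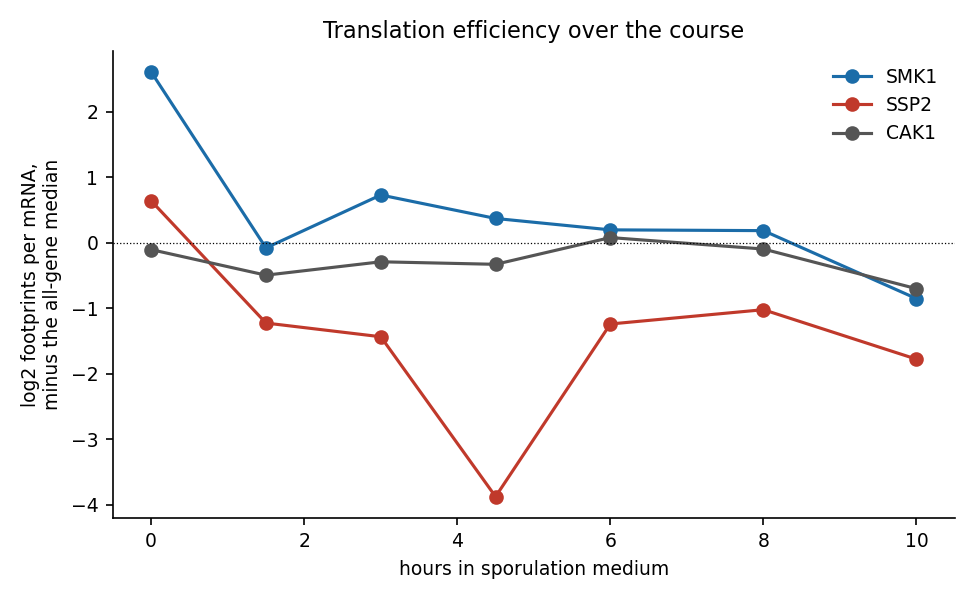
Translation efficiency of the 3 genes against hours in sporulation medium, as log2 of footprints over mRNA minus the all-gene median of that time (dotted line at 0); each point is 1 pair of libraries. SSP2 has its lowest point at 4.5 h (-3.88) and is near -1.2 at 1.5 and 6 h, while CAK1 stays between -0.70 and 0.08.

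SSP2 was set beside other genes whose mRNA came up at 4.5 h. Of the 131 genes whose mRNA was at least 8-fold higher at 4.5 h than at 3 h, 117 also averaged 5 RPKM or more in footprints, a set chosen after the course values had been seen. Their median efficiency at 4.5 h was -0.26 relative to all genes, with 71 below the all-gene median and 3 below SSP2, and their median change from 4.5 to 6 h was 0.46 on the log2 scale. SSP2 changed by 2.64, with 2 genes above it, and SMK1 by -0.17, with 104 above it. Those 2 were YGL230C (3.51) and SPR6 (3.15), and after SSP2 came YEL023C (2.43) and HXT10 (2.37), a hexose transporter gene. The 4.5 h mRNA values both choose this set and enter its efficiencies, so a low efficiency at 4.5 h and a higher one later are in part built into the choice. This step has no replicates, and no test was made.

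**Figure D3:**
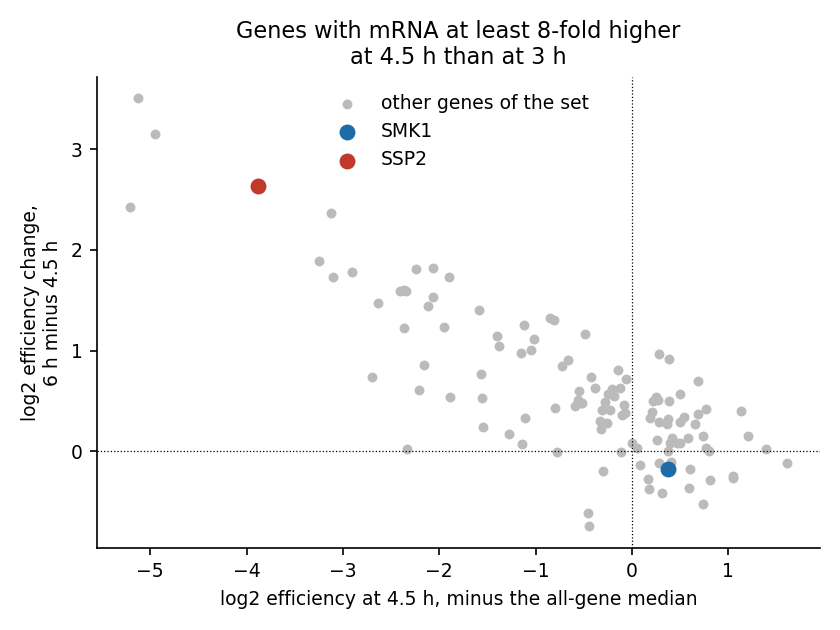
The 117 genes averaging 5 RPKM or more in both assays whose mRNA was at least 8-fold higher at 4.5 h than at 3 h, plotted by log2 translation efficiency at 4.5 h and its change to 6 h, both relative to the all-gene median. The 4.5 h value enters both axes; SSP2 lies at -3.88 and 2.64, SMK1 at 0.37 and -0.17.

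CAK1, the upstream kinase, was present throughout and changed least. Its footprints were 44.2 RPKM in growth, 29.4 at 0 h, 77.1 at 1.5 h, 91.9 at 3 h, 306 at 4.5 h, 308 at 6 h, 216 at 8 h, 89.9 at 10 h and 51.8 in spores, and 42.1 in MATa/a cells. Its mRNA was 116, 134, 154, 188, 561, 383, 298, 230 and 124 RPKM in the same states, and 145 in MATa/a cells. The highest footprint values, at 4.5 and 6 h, overlap in their counting intervals (290 to 323 and 287 to 330 RPKM), whereas the mRNA was highest at 4.5 h alone. In total RNA the values of these 2 hours, 78.4 and 71.3 on the scale of those libraries, overlap as well (70.4 to 87.2 and 63.9 to 79.3). CAK1 reached 50% of its maximum at 3.43 h in footprints and 3.37 h in mRNA, earlier than both other genes. It started nearer to that share, at 29.9% and 33.6% of its maximum at 3 h, against 1.28% and 1.12% for SMK1. Its largest steps, 3.33-fold in footprints and 2.98-fold in mRNA, fell between 3 and 4.5 h, as those of SMK1 did. The earlier time is therefore not evidence of an earlier rise.

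The order of the 3 genes therefore changed during sporulation. Until 1.5 h the order in both footprints and mRNA was CAK1, SSP2, SMK1, with SMK1 footprints at 0.0402 and SSP2 footprints at 0.155 times those of CAK1 at 1.5 h. The counting intervals of SSP2 and SMK1 footprints overlap at 0 h (6.67 to 23.9 and 3.26 to 16.7 RPKM). At 3 h it was CAK1, SMK1, SSP2 in footprints but CAK1, SSP2, SMK1 in mRNA. At 4.5 h SMK1 had 6.40 times the CAK1 footprints and SSP2 0.666 times, although SSP2 had 7.81 times the CAK1 mRNA. At 6 h SSP2 had 15.8 times and SMK1 7.88 times the CAK1 footprints, and this order lasted to 10 h. In spores SSP2 was first in both assays and SMK1 again below CAK1, although the counting intervals of SSP2 and CAK1 footprints overlap there (61.4 to 86.8 and 41.9 to 63.4 RPKM), as they do at 0 h.

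In the total RNA libraries SMK1 and SSP2 also rose most between 3 and 4.5 h. On the scale of these libraries, SMK1 was at 1.39, 4.49, 321 and 456 in the samples of 1.5, 3, 4.5 and 6 h, and SSP2 at 11.7, 19.4, 1006 and 2965. The interpolated times differed from those in mRNA. At 50% of the maximum they were 4.06 h in total RNA against 3.94 h in mRNA for SMK1, and 4.87 against 4.95 h for SSP2. The activator followed the kinase by 0.805 h in total RNA and 1.01 h in mRNA. SSP2 reached 33.9% of its total RNA maximum by 4.5 h and 28.9% of its mRNA maximum, against 4.18% of its footprint maximum. For SMK1 these shares were 70.4, 79.3 and 80.7%.

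The parallel libraries put replicate error on the changes either side of 4.5 h, an hour they do not include. For SMK1 footprints, the 2 libraries of 1.5 h had 1.82 and 0.936 RPKM from 3 reads each, those of 3 h 31.1 and 24.4 and those of 6 h 2590 and 2412. By limma's moderated test on log2(RPKM + 1) with Benjamini-Hochberg adjustment over 5967 genes, SMK1 footprints rose by 3.61 (SE 0.221, adjusted p = 6.67e-05; 2.36 with a pseudocount of 5) from 1.5 to 3 h and by 6.45 (SE 0.221, adjusted p = 5.47e-08) from 3 to 6 h. In these comparisons 3.97% and 15.6% of all genes tested rose, and 3.84% and 40.6% fell. The fit gives each gene 1 spread for all its groups, so the SE does not show the larger counting error of SMK1 at 1.5 h. The exact 95% Poisson intervals of those 2 libraries were 0.375 to 5.31 and 0.193 to 2.73 RPKM.

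SMK1 mRNA was at 7.29 and 7.42 RPKM at 1.5 h, 27.5 at 3 h and 2229 and 2096 at 6 h. It rose by 1.77 (SE 0.271, adjusted p = 0.0169) from 1.5 to 3 h and by 6.24 (SE 0.271, adjusted p = 7.08e-07) from 3 to 6 h in the same limma fit. Of all genes, 3.03% and 9.47% rose in these mRNA comparisons, and 0.804% and 49.1% fell. The single mRNA library of 3 h enters on the assumption that it varies as the others do.

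SSP2 differed from SMK1 in the first step. Its footprints were 21.0 and 19.3 RPKM at 1.5 h and 25.9 and 19.5 at 3 h, groups that overlap, and 4216 and 5182 at 6 h. At 3 h the SSP2 and SMK1 values also overlap, although SMK1 was the higher in each library. The change from 1.5 to 3 h was 0.16 (SE 0.186, limma adjusted p = 0.630) and that from 3 to 6 h a rise of 7.64 (SE 0.186, adjusted p = 1.36e-08). Its mRNA was 70.4 and 71.3 RPKM at 1.5 h, 98.2 at 3 h and 12788 and 15349 at 6 h. The mRNA change was 0.47 (SE 0.228, limma adjusted p = 0.290) and then a rise of 7.14 (SE 0.228, adjusted p = 2.21e-07). SMK1 thus passed the test in both assays by 3 h and SSP2 in neither. That does not show that SSP2 was unchanged, since its mRNA was higher in the 1 library of 3 h than in both of 1.5 h.

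The difference between activator and kinase, log2 SSP2 minus log2 SMK1, was taken in each library to compare them directly. In footprints it was 2.96 and 3.39 at 1.5 h, -0.26 and -0.30 at 3 h and 0.70 and 1.10 at 6 h. The difference fell by 3.46 from 1.5 to 3 h and was 1.18 higher at 6 h than at 3 h, and the groups did not overlap in either step. With 3 SMK1 reads in each library of 1.5 h, the first of these changes depends on the pseudocount, at -2.22 with 5 and -4.13 with 0.1. With 2 libraries a group the exact two-sided permutation test cannot give less than p = 0.333, the value it gave for both. In mRNA the difference was 3.11 and 3.10 at 1.5 h, 1.80 at 3 h and 2.52 and 2.87 at 6 h.

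CAK1 footprints were 83.3 and 83.4 RPKM at 1.5 h, 106 and 103 at 3 h and 345 and 351 at 6 h. Replicates were close, but the first step, 0.33 (SE 0.162, limma adjusted p = 0.236), did not pass. The second was a rise of 1.72 (SE 0.162, adjusted p = 4.69e-05). CAK1 mRNA was 164 and 215 RPKM at 1.5 h, 240 at 3 h and 449 and 442 at 6 h, with a change of 0.35 (SE 0.199, limma adjusted p = 0.366) and then a rise of 0.89 (SE 0.199, adjusted p = 0.00499).

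**Figure D4:**
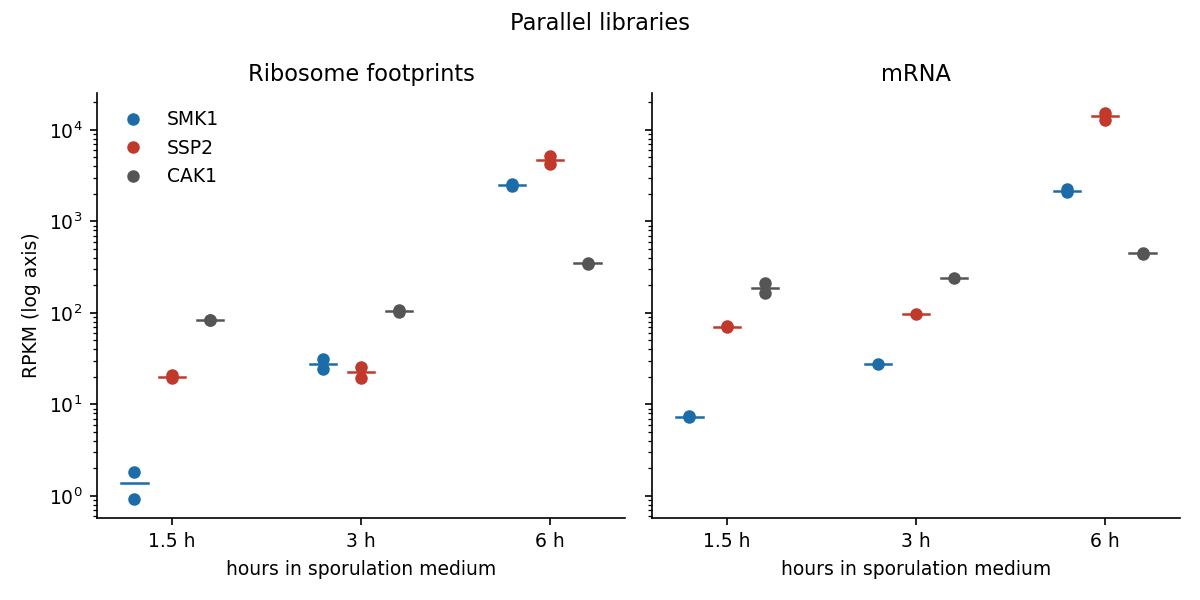
RPKM (log axis) of the 3 genes in the parallel footprint and mRNA libraries at 1.5, 3 and 6 h; points are libraries and short lines their mean, with 1 mRNA library at 3 h. SMK1 footprints lie at 0.936 and 1.82 at 1.5 h and at 24.4 and 31.1 at 3 h, while the SSP2 footprints of these times overlap.

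The change in translation efficiency, tested as the footprint change minus the mRNA change, passed for none of the 3 genes. From 1.5 to 3 h it was 1.84 (SE 0.350, limma adjusted p = 0.263) for SMK1, -0.31 (SE 0.295, adjusted p = 0.779) for SSP2 and -0.03 (SE 0.257, adjusted p = 0.977) for CAK1. No gene of 5967 passed in this comparison (0% in each direction), with 90 higher and 433 lower at an unadjusted p under 0.05. The SMK1 value rests on the 3 reads in each footprint library of 1.5 h and was 0.96 with a pseudocount of 5. From 3 to 6 h the changes were 0.21 (SE 0.350, adjusted p = 0.785), 0.49 (SE 0.295, adjusted p = 0.387) and 0.83 (SE 0.257, adjusted p = 0.129), and 1.14% of genes rose and 0.184% fell. SSP2 had 0.231 footprint RPKM per mRNA RPKM at 3 h and 0.334 at 6 h in these libraries, near the course values of 0.212 and 0.322. The low efficiency of 4.5 h thus has no replicate here.

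The median gene also moved between these libraries. It changed by -0.45 in footprints, -0.81 in mRNA and 0.33 in translation efficiency from 3 to 6 h, and by 0.11 in mRNA and -0.17 in efficiency from 1.5 to 3 h. The calls for the 3 genes were the same when each library was centred on its median gene, although values moved. The 3 to 6 h efficiency change became -0.15 for SMK1, 0.14 for SSP2 and 0.48 for CAK1, and the CAK1 mRNA rise became 1.50. From 1.5 to 3 h the efficiency change became -0.10 for SSP2 and 0.18 for CAK1, and the SSP2 footprint change 0.27. The split of all calls moved with centring, from 932 higher and 2422 lower to 1135 and 1701 in footprints and from 565 and 2929 to 878 and 825 in mRNA from 3 to 6 h. From 1.5 to 3 h it moved from 237 and 229 to 331 and 179 in footprints and from 181 and 48 to 87 and 62 in mRNA, and for efficiency from 3 to 6 h from 68 and 11 to 21 and 11.

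The induction libraries ask how the 3 mRNAs respond to Ndt80. NDT80 itself was at 45.0 to 79.8 RPKM in the 4 uninduced libraries and at 1430 to 5626 in the 5 induced ones, and it rose by 5.86 (SE 0.469, limma adjusted p = 0.000442), as its label says. SMK1 without induction was at 10.4, 55.4, 87.5 and 171 RPKM at 4, 5.5, 6 and 7.75 h. With induction it was at 44.9, 104, 1156, 2147 and 3028 RPKM at 5.75, 6, 6.5, 7 and 7.75 h, which the deposited table gives as 0.25, 0.5, 1, 1.5 and 2.25 h from induction. The first 2 induced values lie within the uninduced range and the other 3 above it.

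SSP2 was at 40.3, 76.5, 177 and 269 RPKM without induction and at 142, 295, 2734, 8372 and 26010 with it. Its first induced value lies within the uninduced range, the second, at 6 h, just above it and the other 3 far above it. At 7.75 h, the hour that both groups share late, the induced library had 96.6 times the uninduced SSP2 level and 17.7 times the SMK1 level. At 6 h, 0.5 h from induction, these ratios were 1.67 and 1.19. The change of the median gene between the same libraries was -1.49 on the log2 scale at 7.75 h and -0.06 at 6 h.

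CAK1 was at 124, 184, 225 and 295 RPKM without induction and at 188, 184, 411, 616 and 412 with it, with a ratio of 1.39 at 7.75 h. All 3 mRNAs were thus also higher at later hours in cells without induced Ndt80. The test of induced against uninduced libraries with hour as a linear term passed for none of them. The changes were 1.96 for SMK1 (SE 0.863, limma adjusted p = 0.475), 2.86 for SSP2 (SE 1.05, adjusted p = 0.449) and 0.37 for CAK1 (SE 0.370, adjusted p = 0.632). Without the uninduced library of 7.75 h these values were 0.35, 0.90 and 0.07, and with no hour term 3.20, 4.10 and 0.72, and none passed. At matched hours the values were 2.19, 3.66 and 0.09, and without the induced library of 5.75 h 2.75, 3.75 and 0.52, and again none passed. Only 0.067% of 5974 genes rose in this test and 0% fell, 4 and 0 genes, with 357 higher and 256 lower at an unadjusted p under 0.05. Without the induced library of 5.75 h 106 genes passed. The induced group joins libraries from 0.25 to 2.25 h after induction.

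The difference between SSP2 and SMK1 was 1.64, 1.49, 1.24, 1.96 and 3.10 in the induced libraries, in order of hour, and 1.85, 0.46, 1.00 and 0.65 in the uninduced ones. The means were 1.89 ± 0.73 (SD, n = 5) and 0.99 ± 0.62 (SD, n = 4), and the groups overlap. The exact two-sided permutation test gave p = 0.0794 for the difference of 0.90. That test treats libraries of different hours as exchangeable. At the hours both groups share, the induced value was the higher, 1.49 against 1.00 at 6 h and 3.10 against 0.65 at 7.75 h, with 1 library each and no test.

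**Figure D5:**
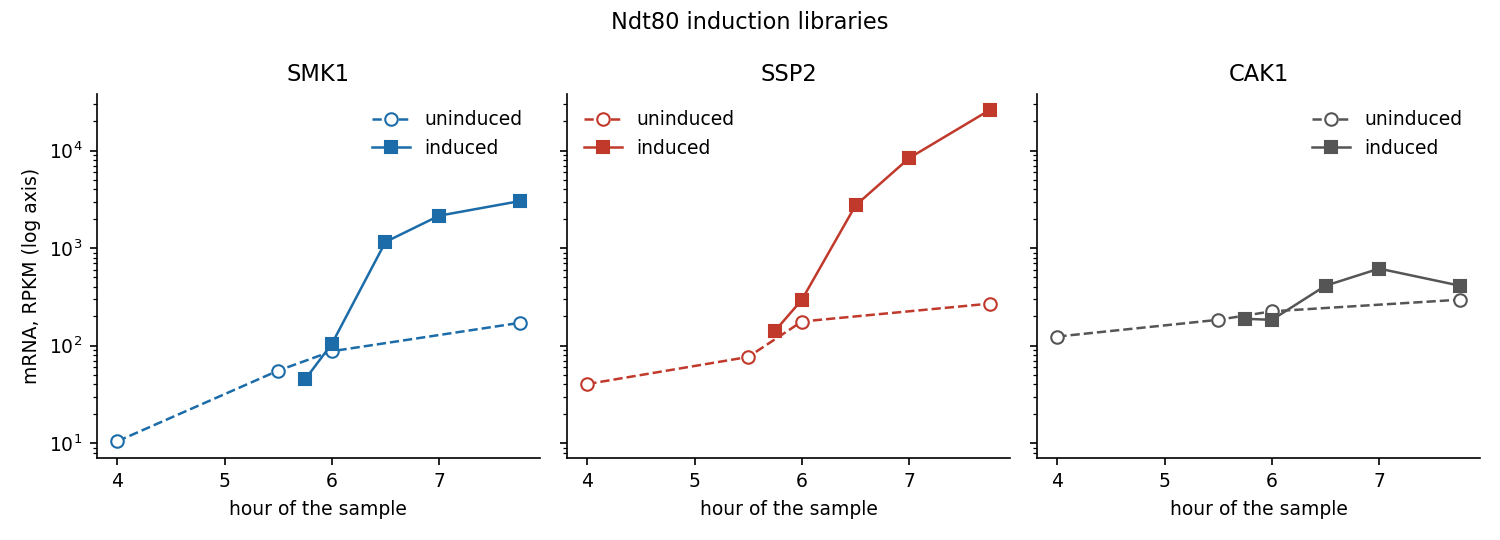
mRNA RPKM (log axis) of SMK1, SSP2 and CAK1 against the hour of the sample, for 4 uninduced (open circles, dashed) and 5 induced (squares) libraries, each point 1 library. From 6.5 h SMK1 and SSP2 lie above all uninduced points, reaching 3028 and 26010 RPKM at 7.75 h against 171 and 269.

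The genes whose course pattern was most like each of the 3 were taken by Pearson correlation of log2(RPKM + 1) over 8 states, 0 to 10 h and spores. These values describe single libraries that share depth and sampling. For SMK1 they were YNL205C, RRT5, DTR1, SPS18 and BIL2 in footprints (r from 0.994 to 0.997) and SPO77, DTR1, SPO74, YDL114W and CDA2 in mRNA (r from 0.998 to 0.999). DTR1 encodes a transporter for the dityrosine precursor of the outer spore wall and CDA2 a chitin deacetylase that makes its chitosan layer. For SSP2 they were UBC11, ECM8, SPR6, HXT10 and YPR078C in footprints (r from 0.986 to 0.993) and YDR042C, UBC11, SPS1, ECM23 and YPR077C in mRNA (r from 0.996 to 0.999). SPS1 encodes a protein kinase of spore formation. SMK1 and SSP2 were more alike in mRNA (r = 0.986) than in footprints (r = 0.899).

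CAK1 was most like SAM50, YLL032C, SPO12, CLB4 and STO1 in footprints (r from 0.992 to 0.996). In mRNA it was most like HST3, EKI1, SCO1, SWM1 and ADD37 (r from 0.964 to 0.979). CLB4 encodes a B-type cyclin, and SWM1 a subunit of the anaphase-promoting complex that is needed for spore wall formation. The correlation of CAK1 with SMK1 was 0.869 in footprints and 0.850 in mRNA, and with SSP2 0.719 and 0.792.

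Genes that act with Smk1 or upstream of it were counted in the same comparisons. Of 14 pathway regulators and partners, 7 rose and none fell in footprints from 1.5 to 3 h (median change 0.90, all genes -0.07), and 10 rose and 2 fell from 3 to 6 h (median 3.44, all genes -0.45). Over all genes 3.97% rose and 3.84% fell in the first step and 15.6% and 40.6% in the second. The first step was led by NDT80 (3.54, SE 0.178, limma adjusted p = 3.08e-05) and PES4 (2.22, SE 0.144, adjusted p = 8.95e-05), an RNA-binding protein gene. The second was led by ISC10 (10.59, SE 0.663, adjusted p = 3.10e-06), a gene needed for spore formation, and SPS1 (9.11, SE 0.236, adjusted p = 1.36e-08). The 2 that fell were IME1 (-1.47, SE 0.251, adjusted p = 0.00123) and RIM4 (-1.43, SE 0.297, adjusted p = 0.00322), which encodes an RNA-binding protein that holds back the translation of some middle mRNAs. In mRNA 4 rose from 1.5 to 3 h, the largest rises being NDT80 (2.84) and SPO75 (2.07), and 10 rose and 2 fell from 3 to 6 h, or 11 and 0 with libraries centred on their median gene. Over all genes 3.03% rose in mRNA in the first step, and 9.47% rose and 49.1% fell in the second. SPS1 (7.37) and SPO77 (5.52) had the largest of these later rises. In the course, RIM4 footprints were at 13388 RPKM at 3 h, 9780 at 4.5 h and 4690 at 6 h, and those of PES4 at 56.2, 3777 and 5894, over the hours in which SSP2 efficiency was lowest and then higher; their part in it was not tested.

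In translation efficiency from 3 to 6 h, 2 of the 14 passed, ISC10 (6.52, SE 1.05, limma adjusted p = 0.0291) and PES4 (1.16, SE 0.227, adjusted p = 0.0478). The size of the ISC10 value again rests on its low footprints at 3 h, where its mRNA was at 147 RPKM in the course. Over all genes 1.14% rose and 0.184% fell. With centring 1 of the 14 passed, and of all 5967 genes 21 rose and 11 fell. In the induction test NDT80 alone passed among the 14 (median change 1.39, all genes -0.33), and 0.067% of all genes rose.

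Genes of spore wall assembly, the process that Smk1 controls, were counted in the same way. Of 25, 17 rose in footprints and 13 in mRNA from 1.5 to 3 h, and 24 and 23 from 3 to 6 h, with none lower. Over all genes 3.97% and 3.03% rose in the first step and 15.6% and 9.47% in the second. The median footprint changes were 1.58 and 6.21 (all genes -0.07 and -0.45) and the median mRNA changes 1.65 and 5.22 (all genes 0.11 and -0.81). LDS1 and LDS2, lipid droplet protein genes, led the first step (3.80, SE 0.213, with a limma adjusted p of 3.78e-05, and 3.65, SE 0.264, with 0.000156), and SPO19, which encodes a prospore membrane protein, and LOH1 led the second (8.30, SE 0.268, adjusted p = 4.13e-08 and 8.12, SE 0.176, adjusted p = 1.24e-08). In mRNA LDS1 and LDS2 (3.15 and 3.13) led the first step and SPS2 and SPO19 (7.03 and 6.84) the second. For efficiency from 3 to 6 h, 3 rose (1.14% of all genes), led by DIT1 (2.43), a gene of dityrosine synthesis, and LOH1 (1.43), and none with centring. None passed in the induction test, where the median change was 2.29.

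Of 27 middle meiotic genes, 12 rose in footprints and 13 in mRNA from 1.5 to 3 h (10 in mRNA with centring), and 26 in each from 3 to 6 h, with none lower. The shares over all genes were 3.97% and 3.03%, then 15.6% and 9.47%. SPR3, a sporulation septin (3.25, SE 0.219, limma adjusted p = 0.000108), and PFS1 (3.24, SE 0.273, adjusted p = 0.000467) led the first step in footprints, and SMA1 (2.69) and SPO74 (2.45) led it in mRNA. From 3 to 6 h ISC10 and SPS1 led in footprints and SPS4 (7.91) and SMA2 (7.45) in mRNA. For efficiency 8 rose from 3 to 6 h (1.14% of all genes), or 4 with centring, and the largest rises were those of ISC10 and ADY4 (3.59, SE 0.373, adjusted p = 0.00603), a spindle pole plaque gene. None passed in the induction test, with a median of 2.78. AMA1, SPS1, PES4 and ISC10 are among both the pathway genes and the middle genes, so these counts are not separate.

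None of the 5 other MAP kinases rose in the parallel libraries as deposited. None of them passed from 1.5 to 3 h in footprints or mRNA. From 3 to 6 h, when 40.6% of all genes fell in footprints and 49.1% in mRNA, so that the counts here lie near the background, 3 fell in footprints, led by KSS1 (-1.14, SE 0.229, limma adjusted p = 0.00280) and HOG1 (-0.99, SE 0.157, adjusted p = 0.000848), and 3 fell in mRNA, led by SLT2 (-1.15, SE 0.243, adjusted p = 0.00407). With centring the footprint counts became 1 higher and 3 lower and none passed in mRNA. Over all 5967 genes the centred counts were 1135 higher and 1701 lower in footprints and 878 and 825 in mRNA. Among 5 other kinases that Cak1 phosphorylates or is thought to, IME2, a meiotic kinase, rose from 1.5 to 3 h in footprints (1.18, SE 0.191, limma adjusted p = 0.0109). Of all genes tested, 3.97% rose in footprints in that step and 15.6% from 3 to 6 h. CDC28 (0.60, SE 0.185, adjusted p = 0.0206) and SGV1 (0.64, SE 0.201, adjusted p = 0.0234) rose from 3 to 6 h in footprints, and none passed in mRNA, or 2 with centring. Neither list had a gene that passed in efficiency or in the induction test.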

How the data were processed

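Values in 5 deposited tables are RPKM, computed by the authors per the file headers; the submitters' processing notes name Bowtie2, CASAVA and bcl2fastq 2.17, and the sources used here name no build, counting tool or strand. Another unit, listed as other, holds for 9 of the 10 total RNA columns and 1 induction column, which the authors deposited as RPKM. The total RNA columns behave as reads multiplied by length and were rescaled to reads per length and library total, and the induction column holds an hour below 0 under its header. Reads were recovered as whole multiples of the value of 1 read, with length less 60 bases; 78.5 to 90.8% of values up to 100 reads were whole within 0.02, and floors are 3 reads. In the parallel table, 443 genes, none of them the 3 described, were assigned by position. Identical columns were counted once, and 7 columns were not used.

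Genes averaging 5 RPKM or more were tested on log2(RPKM + 1) with limma 3.58.1 (R 4.3.3, trended prior, Benjamini-Hochberg, adjusted p under 0.05), in 1 fit of 11 parallel libraries (5 residual degrees of freedom, 5967 genes) and 1 of 9 induction libraries (6, 5974 genes); a fold on this scale understates the change of low genes. The fits were tested on simulated data. Python 3.11.15, numpy 2.4.6, pandas 2.3.3 and scipy 1.17.1 did the rest. The genes named were the 3, NDT80, the 5 most alike per assay, and the called genes with the largest changes in each list, up to 2 in each direction. The members and lists were chosen with earlier results of these data known. Alternatives were other pseudocounts, no filter, median centring, a replicate block, other hour terms, other shares of the maximum and leaving out each library. The parallel mRNA library of 3 h, the only one of its group, was not left out of the fits. Symbols come from a RefSeq table (5994 of 6679 genes); sequences were not used here.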

Additional observations from a re-analysis of the deposited data

How the results depend on the processing

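Of 315 refits of the 3 genes' changes under the alternatives, 310 kept direction and side of the threshold and none lost or gained a call. The 5 that turned were of changes that had not passed: CAK1 efficiency from 1.5 to 3 h (0.18 with centring, 0.0063 with the replicate block, and -0.22 to 0.17 over libraries left out), SMK1 efficiency from 3 to 6 h (-0.15 with centring; 0.04 to 0.38 over libraries left out) and SSP2 footprints from 1.5 to 3 h (-0.040 to 0.35 over libraries left out). Their cause was not tested. Many of the 315 refits left out a library outside the comparison, where the estimate cannot move. SMK1 footprints from 1.5 to 3 h, for example, stayed at 3.61 without either footprint library of 6 h. The only mRNA library of 3 h, on which every mRNA and efficiency step rests, was never left out.

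The number of genes called moved more. With centring it was 149 for mRNA from 1.5 to 3 h (229 before), 1703 for mRNA from 3 to 6 h (3494) and 32 for efficiency from 3 to 6 h (79). The efficiency count from 3 to 6 h was 183 with a pseudocount of 5 and 215 with no filter, and that from 1.5 to 3 h, 0 before, was 1 with a pseudocount of 0.1 and 51 with no filter. Correlations of the deviations between replicate numbers ran from -0.11 to 0.24. The highest was that of footprints with mRNA at 1.5 h, and at 6 h that correlation was -0.02. Whether the numbers pair the libraries is therefore not settled. With the numbers as a replicate block, 76 genes passed for mRNA from 1.5 to 3 h and 44 for efficiency from 3 to 6 h. The induction test called 27 genes at matched hours. Leaving out 1 library at a time gave 52 to 798 genes for footprints from 1.5 to 3 h (466 with all), with 111 and 798 without 1.5 h footprint replicates 1 and 2 and 68 and 52 without those of 3 h. It gave 61 to 309 for mRNA from 1.5 to 3 h, 0 to 8 and 7 to 160 for the efficiency steps and 3 to 106 for induction, the last without the induced library of 5.75 h.

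The induction difference between SSP2 and SMK1 was 0.96 with a pseudocount of 5 (exact permutation p = 0.0476) and 0.59 to 1.18 over libraries left out. The delay of SSP2 footprints was 0.718 h at 20% and 0.109 h at 80% of the maximum, and 0.352 h against total RNA; that of SMK1 was -0.156 h with libraries divided by their median gene and -0.140 h against total RNA. At 20% CAK1 gave no delay, since its mRNA value at 0 h, from the library with the higher scale, was 24.0% of its maximum. Its total RNA at 0 h was 18.6% of the maximum. The promoter comparison planned was not run. Depth limits SMK1 before 3 h most, where libraries held 0 to 47 reads of it.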
